A study of Mus musculus with 14 samples.

Results

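The genes described here are 52 mouse homeobox genes that lie outside the Hox clusters and are known as regulators of embryonic patterning. They were chosen by name, not by their values, and looked up by Ensembl gene ID in both deposited count tables. A row was found for 51 of the 52 among 37991 gene IDs, and Lhx8 had no row under the ID its symbol carries in the annotation used. The 52 genes fall into 9 families: Dlx, LIM (Lhx and Isl), the Six2, Six3, Six4 and Six6 group, Nkx, Msx with Barx, Emx with En and Gbx, Irx, paired-like genes (Alx, Uncx, Otp, Otx, Pitx, Gsc, Prrx) and Meis.

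Messenger RNA was selected by its poly(A) tail and sequenced from J1 mouse embryonic stem cells of the 129S4/SvJae strain in 14 libraries, 2 for each of 7 groups. Experiment 1 held Dnmt-TKO cells given PRT4165, Dnmt-TKO cells given DMSO, wild-type cells given PRT4165 and wild-type cells given DMSO. Dnmt-TKO (TKO) cells lack the DNA methyltransferases Dnmt1, Dnmt3a and Dnmt3b, PRT4165 is named in the labels as an inhibitor of the polycomb complex PRC1, and DMSO is its solvent. Experiment 2 held cells with no treatment named: TKO cells that also lacked the methylcytosine oxidase Tet1 (Tet1-KO TKO), TKO cells and wild-type cells. All groups share the J1 background. The labels state neither whether a mutant line was 1 clone nor whether the replicates were separate cultures, so p-values measure the spread between these samples only, which may be technical.

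Homeobox proteins bind DNA through a homeodomain and switch on programmes for particular body regions and cell types. In embryonic stem cells most of these genes are kept off although their promoters are rich in CpG dinucleotides. Such promoters usually carry little DNA methylation in these cells and are bound by the polycomb complexes PRC1, which ubiquitinates histone H2A, and PRC2, which methylates histone H3. DNA methylation lies mainly elsewhere in the genome, and losing it is known to change where polycomb marks are found.

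Depth per library was between 25588815 and 37399837 counts for experiment 1, and between 23354015 and 41844823 for experiment 2. The targeted genes were lower in the mutants but not absent. Dnmt1 had 128 and 128 CPM (counts scaled to a common library size with TMM factors) in TKO vehicle libraries, against 424 and 434 CPM in wild-type vehicle libraries. Tet1 had 134 and 201 CPM in Tet1-KO TKO libraries, against 791 and 741 CPM in TKO libraries. Counts over the whole gene do not test the deleted part. All 12 embryonic stem cell markers had counts in every library, and their summed level ran from 4280 to 8590 CPM.

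Most of the homeobox genes were weakly expressed. The genes that stayed under 10 counts in every library numbered 6: Six3, Irx6, Alx1, Otp, Prrx1 and Isl2, with Alx1 and Isl2 at 0 counts in all 14 libraries. A count of 0 in 1 library allows up to 3 counts, and this floor covers counting error only. A mean of at least 1 CPM was reached by 28 of the 51 genes in TKO cells given inhibitor, 20 in TKO cells given vehicle, 20 in wild-type cells given inhibitor and 10 in wild-type cells given vehicle. In experiment 2 it was reached by 17 genes in Tet1-KO TKO cells, 18 in TKO cells and 9 in wild-type cells. The median over the 51 genes was 1.19 CPM in TKO cells given inhibitor, 0.537 CPM in TKO cells given vehicle, 0.521 CPM in wild-type cells given inhibitor and 0.176 CPM in wild-type cells given vehicle. It was 0.374 CPM in Tet1-KO TKO cells, 0.358 CPM in untreated TKO cells and 0.168 CPM in untreated wild-type cells. The 2 tables were normalized separately, so levels set across them are descriptive.

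**Figure D1:**
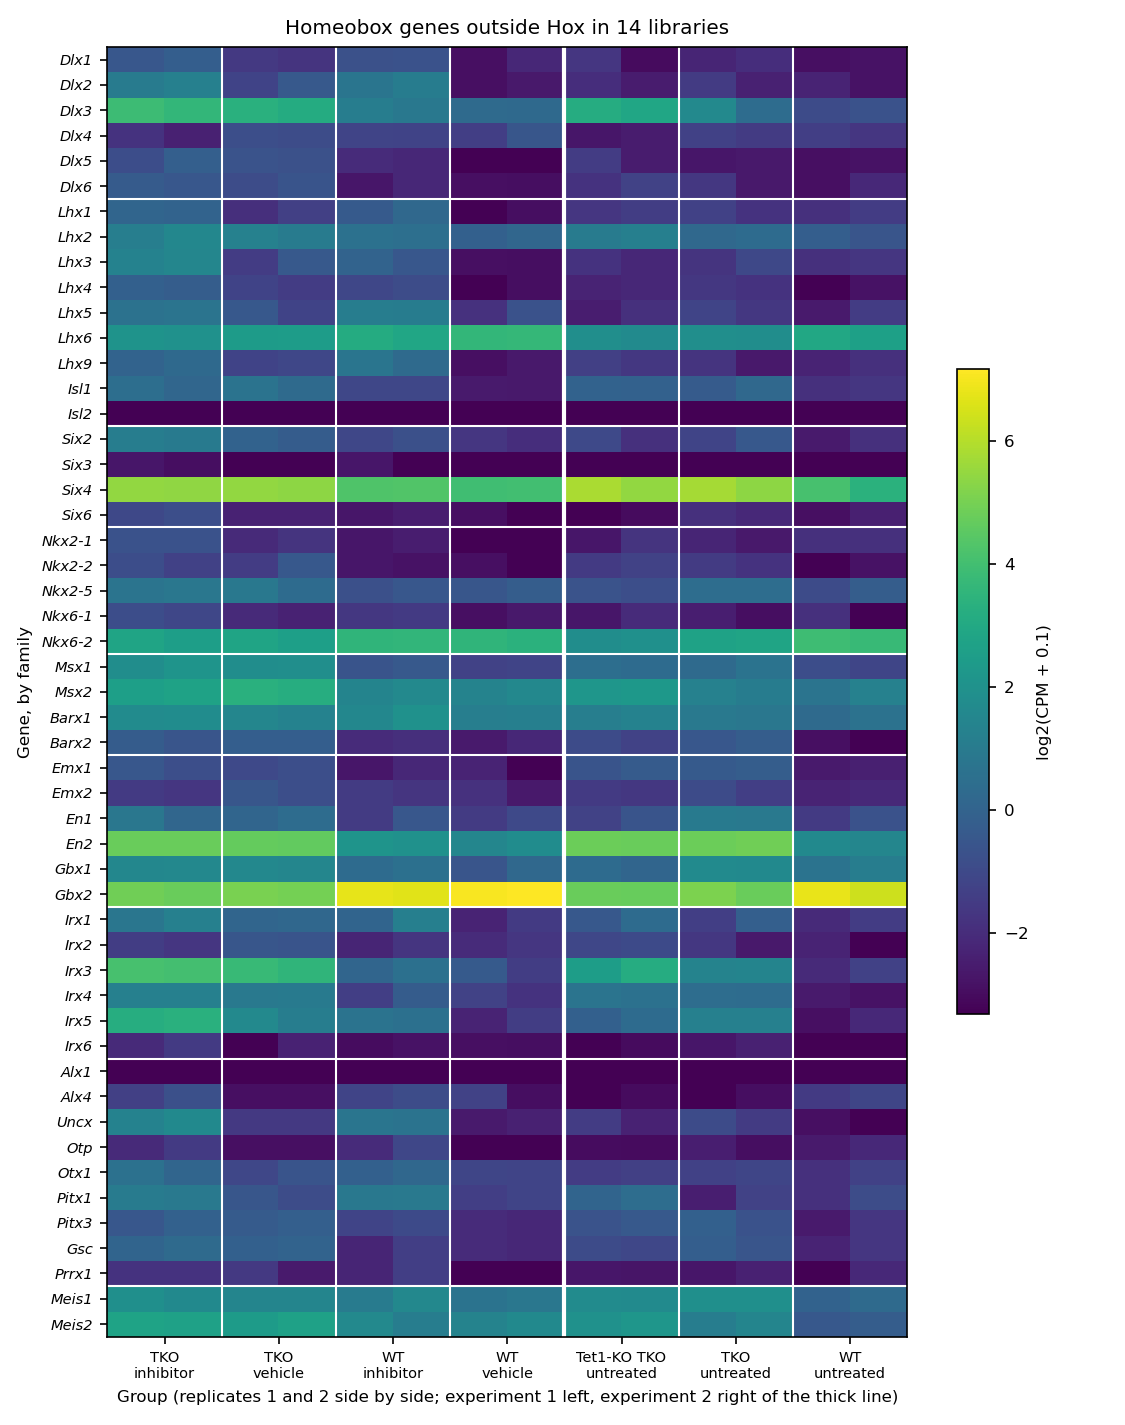
Level of 51 homeobox genes (rows, by family) in 14 libraries (columns, 2 per group), as log2(CPM + 0.1); darker cells are lower. Gbx2 is the brightest row in wild-type cells, Six4 and En2 are bright in the mutants, and Alx1 and Isl2 are at the floor in every column.

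Per kilobase of exon, Gbx2 had the highest level of the 51 genes in all 7 groups. Gbx2 marks the anterior hindbrain in the embryo and is also known in mouse embryonic stem cells as a target of STAT3 signalling that favours self-renewal. It stood at 13.0 CPM per kb in TKO cells given inhibitor, 14.9 in TKO cells given vehicle, 48.9 in wild-type cells given inhibitor and 63.4 in wild-type cells given vehicle. The next genes differed by genotype. En2, a midbrain and hindbrain gene, came second in TKO vehicle cells with 7.23 CPM per kb, while Nkx6-2, a gene of the ventral neural tube, came second in wild-type vehicle cells with 5.75 CPM per kb.

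The promoter windows of 4 genes are shown because these genes represent the response patterns described below. Each window runs from 250 bases before to 50 bases after the transcription start in RefSeq annotation of GRCm38.p6, is given 5′ to 3′ on the gene's strand, and has every CG dinucleotide in capitals. Msx1 rose with genotype and was not called with inhibitor (chr5:37824536-37824835, minus strand). Uncx rose with inhibitor and was not called with genotype under vehicle (chr5:139543648-139543947, plus strand). Lhx1 rose with each (chr11:84525485-84525784, minus strand), and Gbx2 fell with each (chr1:89931127-89931426, minus strand).
Msx1: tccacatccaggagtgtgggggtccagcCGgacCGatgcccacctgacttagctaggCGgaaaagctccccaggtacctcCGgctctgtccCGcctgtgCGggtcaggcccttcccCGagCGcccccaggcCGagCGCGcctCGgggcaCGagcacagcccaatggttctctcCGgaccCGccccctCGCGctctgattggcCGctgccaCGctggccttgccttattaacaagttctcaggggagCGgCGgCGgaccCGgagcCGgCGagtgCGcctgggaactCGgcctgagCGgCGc
Uncx: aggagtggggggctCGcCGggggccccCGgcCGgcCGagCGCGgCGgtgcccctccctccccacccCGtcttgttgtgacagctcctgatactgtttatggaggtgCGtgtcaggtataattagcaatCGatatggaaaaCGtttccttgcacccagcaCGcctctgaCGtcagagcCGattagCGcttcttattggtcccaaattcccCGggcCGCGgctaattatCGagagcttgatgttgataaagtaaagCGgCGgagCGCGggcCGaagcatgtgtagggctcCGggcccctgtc
Lhx1: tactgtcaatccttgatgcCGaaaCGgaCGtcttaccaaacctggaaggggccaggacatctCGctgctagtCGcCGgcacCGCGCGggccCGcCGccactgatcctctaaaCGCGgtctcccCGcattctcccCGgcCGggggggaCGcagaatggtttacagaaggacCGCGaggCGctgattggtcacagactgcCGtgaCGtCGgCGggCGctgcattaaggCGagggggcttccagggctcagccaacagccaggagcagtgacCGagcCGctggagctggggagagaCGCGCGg
Gbx2: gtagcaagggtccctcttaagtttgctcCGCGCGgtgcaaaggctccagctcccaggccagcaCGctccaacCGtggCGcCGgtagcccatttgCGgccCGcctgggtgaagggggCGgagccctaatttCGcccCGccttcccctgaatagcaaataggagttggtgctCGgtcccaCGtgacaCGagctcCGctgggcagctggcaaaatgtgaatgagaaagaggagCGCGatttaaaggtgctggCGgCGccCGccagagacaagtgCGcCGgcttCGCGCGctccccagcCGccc

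The windows of Msx1, Uncx, Lhx1 and Gbx2 hold 29, 26, 31 and 27 CG dinucleotides. Of the other genes that fell with genotype, the window of Nkx6-2 holds 32 and the 3 windows of Lhx6 hold 16, 17 and 11. RefSeq windows were found for 37 of the 52 genes, in 42 windows. These had a median of 22.5 CG dinucleotides (range 4 to 50), against 7 over all 32851 windows. A GC content of at least 50% with an observed-to-expected CpG ratio of at least 0.6 was met by 76.2% of the 42 windows and 33.5% of all windows. By pattern, each gene was counted once, by its window with the most CG dinucleotides, unlike the median over windows above. The median CG count was 24 for 12 genes with a window that rose with genotype alone. It was 27 for 3 genes that rose with inhibitor alone in both lines and 23.5 for 6 that rose in both respects. These letters show sequence only, and methylation was not measured in the files used here. The homeodomain-type motif TAATTA, which reads the same on both strands, was in 9.52% of the 42 windows and 5.29% of all windows. TATAAA, searched on both strands, was in 9.52% and 13.6%.

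Under vehicle, genes of all 9 families were higher in TKO cells than in wild-type cells. Of 45 homeobox genes tested, 32 rose and 3 fell, which is 71.1% and 6.67% of them. Over all 16711 genes tested, 34.8% rose and 34.2% fell. A gene was called here at an adjusted p under 0.05 in edgeR's quasi-likelihood test, with Benjamini-Hochberg adjustment over all genes of the table. The rise exceeded 2-fold for 31 of the 32 genes, and the median log2 fold change was 2.17 over the 45 genes and 0.01 over all genes. With Dlx5 and Nkx2-1, at 0 counts in wild-type vehicle cells, placed at their lower bounds, the median was 2.11. Of the 45 genes, 21 had a group with under 10 counts in all and entered the test through other groups, so they had to differ between some groups, and no count over the tested genes is support for a direction. In these bulk samples, more cells expressing a gene and more RNA per cell cannot be told apart.

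All 5 tested Irx genes rose. Irx genes pattern the neural tube and heart and lie in 2 clusters, with Irx3, Irx5 and Irx6 on chromosome 8 and Irx1, Irx2 and Irx4 on chromosome 13. Irx3 had 13.4 and 11.7 CPM in TKO vehicle libraries, against 0.678 and 0.28 CPM in wild-type vehicle libraries. Both TKO libraries lay far above both wild-type libraries, a 26.1-fold difference of means (log2 fold change 4.74 ± 0.21 SE, edgeR adjusted p = 5.79e-16). Irx5 had 2.93 and 2.07 CPM in TKO vehicle libraries, against 0.107 and 0.28 CPM in wild-type vehicle libraries (log2 fold change 3.62 ± 0.34 SE, adjusted p = 1.26e-09). Irx4, a gene of the heart ventricle, averaged 1.85 ± 0.0879 CPM in TKO cells and 0.254 ± 0.0954 CPM in wild-type cells (SD, n = 2 each). Irx1 and Irx2 rose 5.66-fold and 3.26-fold, and the Irx2 call was lost without replicate 1 of the wild-type vehicle group (adjusted p = 0.0644). Irx3 shares 124 exon bases with the antisense gene Irx3os, which had 14 and 10 counts in TKO libraries and 0 and 0 in wild-type libraries. Reads there cannot be assigned by strand, because the strand setting of the counting is not given in the sources used here. In all, 18 of the 51 genes share exon sequence with another annotated gene. Besides Irx3 these are Dlx1, Dlx4, Dlx6, Lhx3, Lhx5, Lhx6, Six3, Six6, Nkx2-2, Nkx6-2, Emx2, Gbx2, Irx6, Alx1, Pitx1, Pitx3 and Meis1.

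Among LIM genes, which act with co-factors in motor neurons, forebrain, pituitary and gonad, 6 of 8 tested rose and 1 fell. Isl1, a gene of motor neurons and of heart progenitors, had 45 and 34 counts in TKO vehicle libraries, against 2 and 2 counts in wild-type vehicle libraries (log2 fold change 4.24 ± 0.51 SE, adjusted p = 7.94e-08). Lhx3 and Lhx4 are pituitary and motor neuron genes. Lhx4 had 10 and 8 counts in TKO libraries, against 0 and 1 in wild-type libraries. That is an 18.2-fold ratio with a 95% counting interval of 2.87 to 757 (adjusted p = 0.000783). Lhx3 had 8 and 20 counts in TKO libraries, against 1 and 1 in wild-type libraries, a 14.1-fold ratio with an interval of 3.56 to 122 (adjusted p = 0.000221). The wild-type counts are too few to fix the size of either ratio. In neither gene did the libraries overlap, which was a condition for giving full values. Lhx1, Lhx9 and Lhx2 also rose, and Lhx5 was not called (log2 fold change 0.41, adjusted p = 0.444).

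Lhx6, a gene of cortical interneurons, went the other way. It had 5.38 and 5.42 CPM in TKO vehicle libraries, against 12.4 and 12.7 CPM in wild-type vehicle libraries (log2 fold change -1.22 ± 0.11 SE, adjusted p = 9.95e-10). The libraries within each genotype nearly coincided, and the groups did not overlap.

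Dlx genes lie in pairs and act in forebrain interneurons, jaw, limb and placenta, and 4 of 6 rose. Dlx5 had 16 and 15 counts in TKO vehicle libraries, against 0 and 0 in wild-type vehicle libraries, at least 10.4-fold higher against a floor of 3 counts over the group (adjusted p = 1.36e-05). Its neighbour Dlx6 had 13 and 17 counts in TKO libraries, against 1 and 1 in wild-type libraries, a 15.1-fold ratio with a counting interval of 3.84 to 131 (adjusted p = 7.97e-05). Under vehicle both genes of the pair were near 0 in wild-type cells, with TKO libraries above them. Untreated, where neither was tested, Dlx5 had 2 and 2 counts in TKO libraries, against 1 and 1 in wild-type libraries, and Dlx6 had 8 and 2, against 1 and 3. Dlx3, known from placenta, skin and tooth, had 297 and 261 counts in TKO libraries, against 32 and 35 in wild-type libraries (log2 fold change 3.07 ± 0.17 SE, adjusted p = 6.27e-14). Dlx2 rose, and Dlx1 (adjusted p = 0.105) and Dlx4 (adjusted p = 0.975) were not called.

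Of 5 Nkx genes, 3 rose and 1 fell. Nkx2-1, a gene of thyroid, lung and ventral forebrain, had 4 and 6 counts in TKO vehicle libraries, against 0 and 0 in wild-type vehicle libraries, at least 3.36-fold higher (adjusted p = 0.00298). Untreated, where it was not tested, Nkx2-1 had 4 and 2 counts in TKO libraries, against 5 and 4 in wild-type libraries, so the libraries did not run the same way. Nkx2-2, a gene of the ventral neural tube and pancreas, had 8 and 19 counts in TKO libraries, against 1 and 0 in wild-type libraries, a 27.3-fold ratio with a counting interval of 4.49 to 1116 (adjusted p = 0.000204). These are small counts, and the 2 TKO libraries differed from each other. Nkx2-5, a heart gene, rose 2.13-fold, and its call was lost without replicate 1 of the TKO vehicle group (adjusted p = 0.0844). Nkx6-2 had 6.96 and 6.02 CPM in TKO libraries, against 11.6 and 10.4 CPM in wild-type libraries (log2 fold change -0.75 ± 0.12 SE, adjusted p = 3.67e-06). Nkx6-2 shares 246 exon bases with Inpp5a on the other strand.

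The midbrain and hindbrain gene En2 had 25.9 and 25.3 CPM in TKO vehicle libraries, against 2.75 and 3.36 CPM in wild-type vehicle libraries, an 8.39-fold difference of means (log2 fold change 3.06 ± 0.11 SE, adjusted p = 4.76e-18). En1, Gbx1 and the cortical gene Emx2 also rose, by 3.33-fold, 3.44-fold and 4.46-fold. The cortical gene Emx1 rose too, with 12 and 14 counts in TKO libraries, against 3 and 0 in wild-type libraries, an 8.75-fold ratio with a counting interval of 2.68 to 45.2. The Emx2 call was lost without replicate 2 of the wild-type vehicle group (adjusted p = 0.0636). Gbx2 had 33.1 and 31.6 CPM in TKO libraries, against 132 and 144 CPM in wild-type libraries, both TKO libraries lying far below both wild-type libraries (log2 fold change -2.10 ± 0.06 SE, adjusted p = 5.18e-20). Gbx2 shares 946 exon bases with D130058E05Rik on the other strand.

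Msx1, a BMP-responsive gene of limb and neural crest, had 102 and 105 counts in TKO vehicle libraries, against 9 and 11 counts in wild-type vehicle libraries (log2 fold change 3.37 ± 0.27 SE, adjusted p = 7.51e-11). Msx2 and Barx2 rose 3.59-fold and 7.89-fold, while Barx1, a stomach and tooth gene, was not called. Six4, which acts in muscle and sensory development, had 43.8 and 42.2 CPM in TKO libraries, against 15.6 and 15.8 CPM in wild-type libraries (log2 fold change 1.45 ± 0.06 SE, adjusted p = 7.37e-16). Six2, a gene of nephron progenitors, rose 4.36-fold and Six6 was not called. The Hox co-factor genes Meis1 and Meis2 rose 1.63-fold and 2.10-fold. Of 6 paired-like genes tested, the organiser gene Gsc and the dopaminergic neuron gene Pitx3 rose, by 6.53-fold and 5.65-fold, and Uncx, Otx1, Pitx1 and Alx4 were not called.

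**Figure D2:**
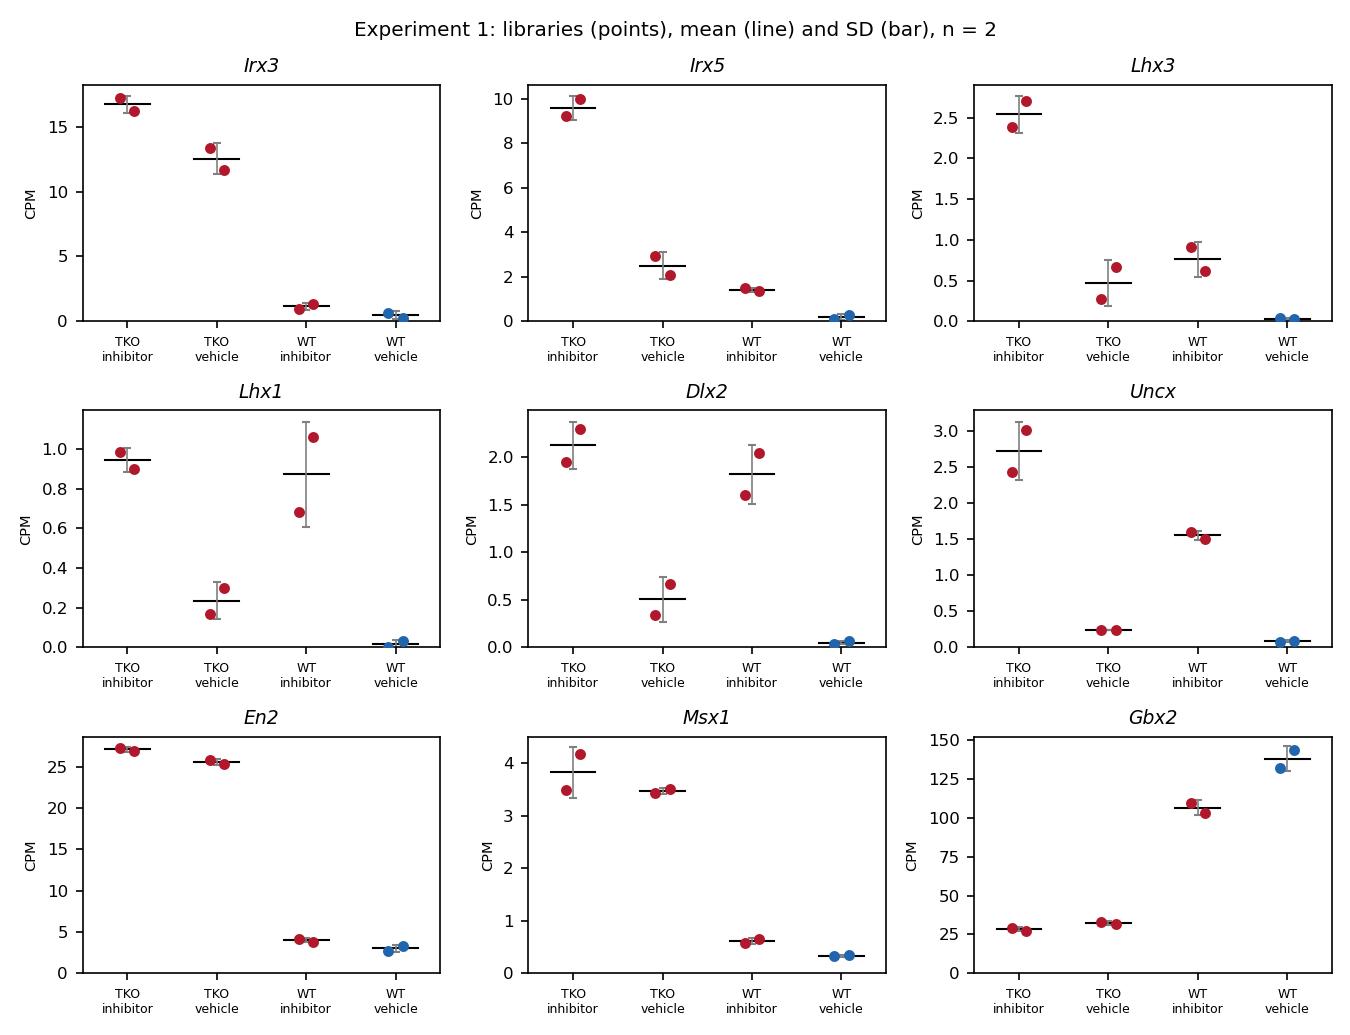
CPM of 9 homeobox genes in the 8 libraries of experiment 1, 2 per group, with the mean (line) and SD (bar), n = 2. Irx3, En2 and Msx1 are high in both TKO groups, Uncx is high in both inhibitor groups, and Gbx2 is highest in wild-type cells given vehicle (132 and 144 CPM).

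The same genotypes without treatment, in libraries shared with no other comparison above, gave 18 rising and 3 falling genes of 28 tested. Those counts are 64.3% and 10.7% of the tested genes, and over all 16303 genes tested 25.9% rose and 24.3% fell. All 18 had also risen under vehicle, where 22 of the same 28 genes rose, so that 100% of the untreated and 81.8% of the vehicle list were shared. The same 3 genes, Gbx2, Lhx6 and Nkx6-2, fell in both experiments, and 27 of 28 genes had the same sign. These overlaps were not computed over all genes, so they are not shown to be particular to the homeobox genes. The other 24 of the 52 genes were not tested in experiment 2, since Lhx8 had no row and the rest failed the filter on low counts. Of the 28 tested, 8 had a group with under 10 counts in all.

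Untreated, 3 of the 5 tested Irx genes rose. Irx5 had 81 and 70 counts in TKO libraries, against 1 and 3 counts in wild-type libraries (log2 fold change 4.79 ± 0.51 SE, adjusted p = 1.2e-05). Irx4 had 44 and 37 counts in TKO libraries, against 2 and 1 in wild-type libraries, a 20.8-fold ratio with a counting interval of 6.87 to 103 (adjusted p = 3.49e-05). Irx3 had 88 and 79 counts in TKO libraries, against 4 and 7 in wild-type libraries (log2 fold change 3.52 ± 0.42 SE, adjusted p = 2.81e-05). In none of the 3 genes did the genotypes overlap, which was a condition for giving full values. Irx3 averaged 2.52 ± 0.0347 CPM in untreated TKO cells (SD, n = 2), and had 13.4 and 11.7 CPM in vehicle TKO cells, on scales normalized separately.

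Barx2, an epithelial and muscle gene, had 22 and 23 counts in untreated TKO libraries, against 1 and 0 in wild-type libraries, a 34.7-fold ratio with a counting interval of 5.92 to 1400 (adjusted p = 0.000432). En2 had 28.1 and 29.7 CPM in TKO libraries, against 3.03 and 2.73 CPM in wild-type libraries (log2 fold change 3.32 ± 0.14 SE, adjusted p = 1.1e-08). En2 was therefore about as high in untreated as in vehicle TKO cells. Emx1 had 24 and 23 counts in TKO libraries, against 2 and 2 in wild-type libraries (log2 fold change 3.12 ± 0.58 SE, adjusted p = 0.000835). En1 had 65 and 55 counts in TKO libraries, against 7 and 12 in wild-type libraries (log2 fold change 2.25 ± 0.43 SE, adjusted p = 0.000951). Pitx3 had 29 and 16 counts in TKO libraries, against 2 and 5 in wild-type libraries (log2 fold change 2.25 ± 0.60 SE, adjusted p = 0.00783). The Pitx3 call was lost without replicate 1 of the wild-type group (adjusted p = 0.0845) or of the TKO group (adjusted p = 0.0759).

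The other rising genes were Isl1, Dlx3, Gsc, Six2, Meis1, Six4, Meis2, Msx1, Nkx2-5 and Gbx1, by 1.72-fold to 4.47-fold. Some calls were lost when single libraries were left out: without replicate 1 of the wild-type group the adjusted p was 0.0782 for Gsc, 0.202 for Nkx2-5 and 0.16 for Gbx1, and without replicate 2 of the TKO group it was 0.243 for Six2. Gbx2 had 33.9 and 27.2 CPM in TKO libraries, against 112 and 82.7 CPM in wild-type libraries (log2 fold change -1.67 ± 0.15 SE, adjusted p = 2.95e-06). Nkx6-2 had 6.59 and 6.84 CPM in TKO libraries, against a mean of 14.2 ± 1.15 CPM in wild-type libraries (SD, n = 2; log2 fold change -1.08 ± 0.16 SE, adjusted p = 0.000129). Lhx6 had 3.55 and 3.39 CPM in TKO libraries, against 7.80 and 6.13 CPM in wild-type libraries (log2 fold change -1.01 ± 0.20 SE, adjusted p = 0.00137). All 3 falling genes had TKO libraries wholly below the wild-type libraries.

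**Figure D3:**
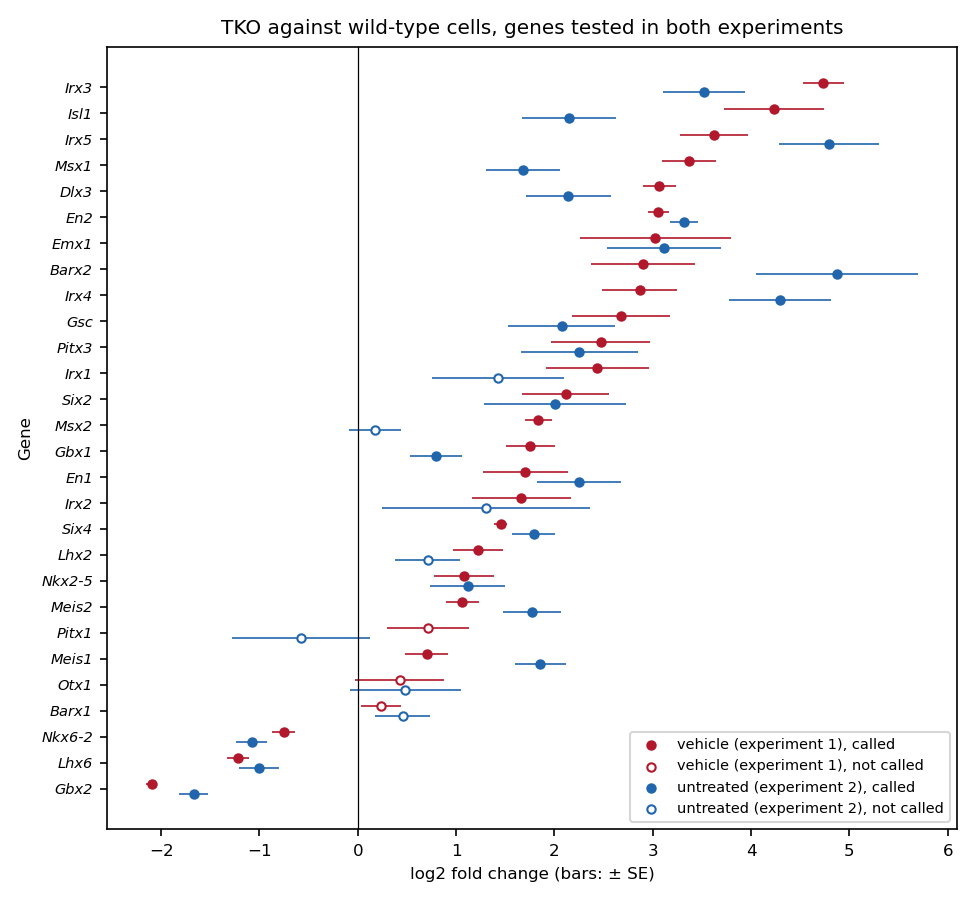
Log2 fold change (± SE) of TKO against wild-type cells for the 28 homeobox genes tested in both experiments, under vehicle (red) and untreated (blue); filled points passed an adjusted p of 0.05. Irx3 leads under vehicle at 4.74, Barx2 leads untreated at 4.87, and Nkx6-2, Lhx6 and Gbx2 are below 0 in both.

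Genes on chromosomes 1 and 8 moved as a whole with genotype. Under vehicle the median log2 fold change differed from that of the other autosomes by -0.40 on chromosome 1 and by 0.33 on chromosome 8, and untreated by -0.45 and 0.30. Irx3, Irx5 and silent Irx6 lie on chromosome 8, and Lhx4, Lhx9, En1, Gbx2 and silent Prrx1 on chromosome 1. With these 8 genes left out, 27 of 39 genes rose and 2 fell under vehicle, and 15 of 24 rose and 2 fell untreated. Their part in the changes of Irx3, Irx5 and Gbx2 was not tested.

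PRT4165 in wild-type cells raised 20 homeobox genes and lowered 2 of 45 tested, or 44.4% and 4.44%, against 19.0% and 18.7% of all genes. The 6 genes with the largest fitted changes had between 0 and 3 counts in all in wild-type vehicle libraries. Lhx1, a gene of the head organiser and kidney, had 24 and 26 counts in wild-type inhibitor libraries, against 0 and 1 in wild-type vehicle libraries. This was a 50.5-fold ratio with a counting interval of 8.65 to 2033 (adjusted p = 6.51e-06). Dlx2 had 56 and 50 counts in inhibitor libraries, against 1 and 2 in vehicle libraries, a 35.7-fold ratio with an interval of 11.9 to 176 (adjusted p = 4.45e-08). Dlx5, its family member, had 5 and 3 counts in inhibitor libraries, against 0 and 0 in vehicle libraries, at least 2.66-fold higher (adjusted p = 0.0161). The Dlx5 call was lost without replicate 1 or 2 of the wild-type vehicle group (adjusted p = 0.069 and 0.0833) or without replicate 1 of the inhibitor group (adjusted p = 0.072).

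Of the 8 LIM genes tested, 6 rose with inhibitor in wild-type cells and Lhx6 fell. Lhx9, a gonad gene, had 56 and 28 counts in inhibitor libraries, against 1 and 2 in vehicle libraries, a 28.3-fold ratio with a counting interval of 9.35 to 140 (adjusted p = 2.4e-07). Lhx3 had 32 and 15 counts in inhibitor libraries, against 1 and 1 in vehicle libraries, a 23.7-fold ratio with an interval of 6.21 to 202 (adjusted p = 2.24e-05). Lhx4 had 13 and 11 counts in inhibitor libraries, against 0 and 1 in vehicle libraries, a 24.2-fold ratio with an interval of 3.95 to 996 (adjusted p = 0.000422). None of these 3 genes overlapped between treatments, which was a condition for giving full values. Lhx5 and Isl1 rose by 5.83-fold and 5.52-fold.

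Uncx, which marks the posterior part of each somite, had 56 and 37 counts in wild-type inhibitor libraries, against 2 and 3 in wild-type vehicle libraries (log2 fold change 4.16 ± 0.45 SE, adjusted p = 9.51e-08). Irx1 had 33 and 54 counts in inhibitor libraries, against 3 and 8 in vehicle libraries (log2 fold change 3.01 ± 0.49 SE, adjusted p = 3.06e-05). Both genes were well above vehicle in both inhibitor libraries, although Irx1 differed between the 2 inhibitor libraries. The remaining rising genes were Irx5, Dlx1, Pitx1, Nkx6-1, Otx1, Irx3, Dlx3, Barx1, En2 and Six4, between 1.26-fold and 7.31-fold. Without replicate 1 of the wild-type vehicle group the adjusted p was 0.183 for Nkx6-1 and 0.214 for En2, and without replicate 2 of that group 0.117 for Irx3. Without replicate 1 of the wild-type inhibitor group it was 0.105 for Dlx3, and without replicate 2 of that group 0.0569 for Otx1 and 0.208 for Barx1. With every library kept, the Nkx6-1 and En2 calls were also lost with no filter (adjusted p = 0.0812 and 0.0552), and with DESeq2 those of Nkx6-1, En2 and Barx1 were lost (adjusted p = 0.142, 0.0693 and 0.0702). Lhx6 had 8.64 and 7.38 CPM in inhibitor libraries, against 12.4 and 12.7 CPM in vehicle libraries (log2 fold change -0.64 ± 0.11 SE, adjusted p = 4.38e-05). Gbx2 had 110 and 103 CPM in inhibitor libraries, against 132 and 144 CPM in vehicle libraries (log2 fold change -0.37 ± 0.05 SE, adjusted p = 3.59e-06).

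In TKO cells PRT4165 raised 19 genes and lowered 5 of 45, or 42.2% and 11.1%, against 19.9% and 19.6% of all genes. Uncx had 89 and 97 counts in TKO inhibitor libraries, against 7 and 7 in TKO vehicle libraries (log2 fold change 3.51 ± 0.32 SE, adjusted p = 7.56e-09). Alx4, a craniofacial and limb gene, had 11 and 16 counts in inhibitor libraries, against 1 and 1 in vehicle libraries, an 11.7-fold ratio with a counting interval of 2.94 to 102 (adjusted p = 0.00387). Alx4 was not among the genes called with genotype or with inhibitor in wild-type cells, where vehicle libraries held 9 and 1 counts. Lhx3 had 87 and 87 counts in inhibitor libraries, against 8 and 20 in vehicle libraries (log2 fold change 2.42 ± 0.32 SE, adjusted p = 1.79e-06). Dlx2 had 71 and 74 counts in inhibitor libraries, against 10 and 20 in vehicle libraries (log2 fold change 2.06 ± 0.31 SE, adjusted p = 1.09e-05).

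Irx5 had 336 and 321 counts in TKO inhibitor libraries, against 87 and 62 in TKO vehicle libraries (log2 fold change 1.94 ± 0.16 SE, adjusted p = 1.37e-09). Lhx1 had 36 and 29 counts in inhibitor libraries, against 5 and 9 in vehicle libraries (log2 fold change 1.99 ± 0.44 SE, adjusted p = 0.000928). Pitx1, a gene of hindlimb and pituitary, had 72 and 58 counts in inhibitor libraries, against 18 and 13 in vehicle libraries (log2 fold change 1.85 ± 0.29 SE, adjusted p = 1.77e-05). In these 3 genes every inhibitor library lay above both vehicle libraries, a condition for giving full values. Six6, an eye gene, had 14 and 15 counts in inhibitor libraries, against 3 and 3 in vehicle libraries (log2 fold change 2.03 ± 0.62 SE, adjusted p = 0.0115). Without replicate 1 of the TKO vehicle group its adjusted p was 0.0983, without replicate 2 of that group 0.0999, and without replicate 2 of the TKO inhibitor group 0.084.

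The further rising genes in TKO cells were Nkx6-1, Dlx1, Nkx2-1, Lhx5, Lhx9, Lhx4, Otx1, Six2, Irx1, Dlx3 and Irx3, between 1.34-fold and 3.57-fold. With every library kept, DESeq2 did not call the rises of Nkx6-1, Dlx1, Nkx2-1, Lhx4, Irx1 and Six6. Of the 24 calls with inhibitor in TKO cells, 12 were kept in every alternative. Without replicate 2 of the TKO vehicle group 12 genes rose, and the adjusted p was 0.145 for Nkx6-1, 0.072 for Dlx1, 0.127 for Lhx4 and 0.108 for Irx3. It was 0.177 for Nkx2-1 without replicate 1 of that group, 0.0895 for Otx1 without replicate 1 of the TKO inhibitor group and 0.228 for Irx1 without replicate 2 of the TKO inhibitor group. Of the 5 falling genes, Msx2 had 6.02 and 6.49 CPM in inhibitor libraries, against 9.99 and 9.10 CPM in vehicle libraries (log2 fold change -0.61 ± 0.12 SE, adjusted p = 0.000232). Dlx4 had 7 and 3 counts in inhibitor libraries, against 14 and 13 in vehicle libraries (log2 fold change -1.61 ± 0.56 SE, adjusted p = 0.0249). Irx2 had 10 and 7 counts in inhibitor libraries, against 18 and 17 in vehicle libraries (log2 fold change -1.24 ± 0.46 SE, adjusted p = 0.0351). Lhx6 and Gbx2 fell by 0.44 and 0.19 on the log2 scale. Without replicate 2 of the TKO inhibitor group the adjusted p was 0.182 for Dlx4, 0.175 for Irx2, 0.051 for Lhx6 and 0.15 for Gbx2, leaving 1 falling gene, Msx2. Without replicate 1 or 2 of the TKO vehicle group 2 and 3 genes fell.

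The inhibitor comparisons in the 2 lines share no library. Of the genes that rose, 15 were the same in both, 75% of the 20 in wild-type cells and 78.9% of the 19 in TKO cells. The same sign was found for 36 of the 45 genes. The matching shares over all genes were not computed, so this overlap is not shown to be particular to the homeobox genes. The shared genes were Dlx1, Dlx2, Dlx3, Lhx1, Lhx3, Lhx4, Lhx5, Lhx9, Nkx6-1, Irx1, Irx3, Irx5, Uncx, Otx1 and Pitx1. Of these, Dlx1, Lhx4, Nkx6-1 and Irx1 were not called in TKO cells with DESeq2, nor was Nkx6-1 in wild-type cells. Set against genotype under vehicle, 3 patterns were most frequent. A set of 15 genes rose with genotype and was not called with inhibitor in either line: Dlx6, Lhx2, Nkx2-2, Nkx2-5, Msx1, Emx1, Emx2, En1, Gbx1, Irx4, Pitx3, Gsc, Barx2, Meis1 and Meis2. A set of 9 rose in all 3 comparisons: Dlx2, Dlx3, Lhx1, Lhx3, Lhx4, Lhx9, Irx1, Irx3 and Irx5. A set of 6 rose with inhibitor in both lines and was not called with genotype under vehicle: Dlx1, Lhx5, Nkx6-1, Uncx, Otx1 and Pitx1. Untreated, where Uncx was not tested, it had 15 and 8 counts in TKO libraries, against 1 and 0 in wild-type libraries. That is a 17.7-fold ratio with a counting interval of 2.88 to 730, so Uncx is not shown to be unaffected by genotype. Otx1 and Pitx1 were tested untreated and not called. The comparisons with genotype share vehicle libraries, and a gene that missed the threshold is not shown to be unaffected. These patterns were not counted over all genes, so they are not shown to be particular to the homeobox genes.

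**Figure D4:**
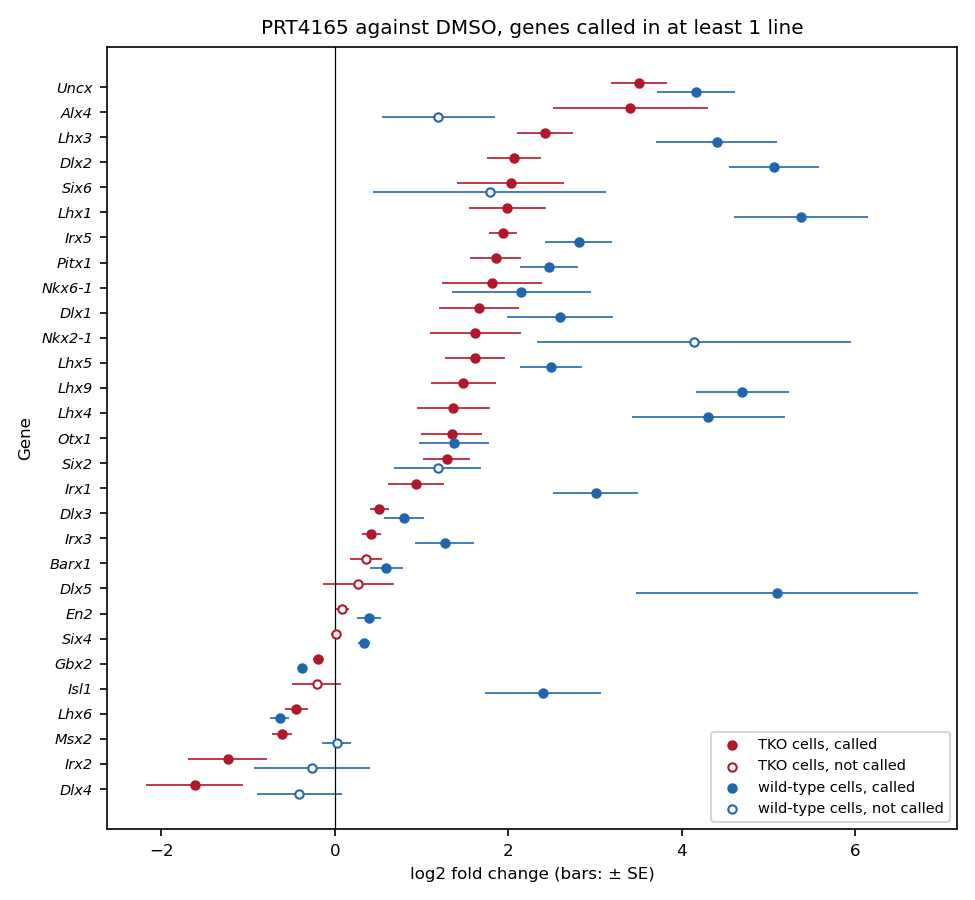
Log2 fold change (± SE) of PRT4165 against DMSO for the homeobox genes called in at least 1 line, in TKO (red) and wild-type (blue) cells; filled points passed an adjusted p of 0.05. Uncx leads in TKO cells at 3.51, and Lhx1 leads in wild-type cells at 5.37, where vehicle counts were 0 and 1 and the fitted size is uncertain.

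Whether the inhibitor acted differently in the 2 lines was tested by the interaction. It called 0 homeobox genes as more raised in TKO cells and 4 as less raised, against 1.77% and 2.12% of all genes. An unadjusted p under 0.05 was reached by 14 of the 45 homeobox genes tested and by 2974 of all 16711 genes. DESeq2 called 0 homeobox genes in either direction. For Lhx9 the inhibitor effect was 1.48 in TKO cells and 4.70 in wild-type cells on the log2 scale (difference -3.22 ± 0.78 SE, adjusted p = 0.0176). For Dlx2 it was 2.06 in TKO cells and 5.06 in wild-type cells (difference -3.00 ± 0.75 SE, adjusted p = 0.0226). For Isl1 it was -0.21 in TKO cells and 2.40 in wild-type cells (difference -2.61 ± 0.73 SE, adjusted p = 0.0431). Six4 had 44.1 and 42.7 CPM in TKO inhibitor libraries, 43.8 and 42.2 in TKO vehicle libraries, 19.5 and 20.1 in wild-type inhibitor libraries and 15.6 and 15.8 in wild-type vehicle libraries (difference -0.32 ± 0.09 SE, adjusted p = 0.0468). All 4 calls were lost when some single libraries were left out, with the highest adjusted p without replicate 2 of the TKO vehicle group for Lhx9 (0.0834) and Dlx2 (0.183), and without replicate 1 of it for Isl1 (0.141) and Six4 (0.18). Over these leave-outs between 0 and 2 genes were called. Lhx9, Dlx2 and Isl1 had 3, 3 and 4 counts in all in wild-type vehicle libraries.

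With both perturbations against neither, 38 of the 45 genes rose and 4 fell, which is 84.4% and 8.89%, against 39.6% and 36.7% of all genes. Lhx3 had 87 and 87 counts in TKO inhibitor libraries, against 1 and 1 in wild-type vehicle libraries, a 76.2-fold ratio with a counting interval of 20.8 to 634 (adjusted p = 2.66e-10). Irx5 had 9.20 and 9.97 CPM in TKO inhibitor libraries, against 0.107 and 0.28 CPM in wild-type vehicle libraries, a 49.6-fold difference of means (log2 fold change 5.56 ± 0.26 SE, adjusted p = 1.8e-15). Nkx2-1 had 19 and 17 counts in TKO inhibitor libraries, against 0 and 0 in wild-type vehicle libraries, at least 10.5-fold higher (adjusted p = 6.78e-06). For Irx5 and Lhx3, both libraries with the 2 perturbations lay above all 6 other libraries of the experiment. Dlx5 was at least 12.8-fold higher (17 and 26 counts against 0 and 0). Lhx1, Dlx2, Lhx4 and Irx3, the next 4 by fitted size, had 65, 145, 54 and 1151 counts in all in TKO inhibitor libraries, against 1, 3, 1 and 28 counts in wild-type vehicle libraries. The falling genes were Gbx2 (-2.29), Lhx6 (-1.66), Dlx4 (-1.59) and Nkx6-2 (-0.77, all log2 fold changes), and the Dlx4 call was lost without replicate 2 of the wild-type vehicle group (adjusted p = 0.274) or of the TKO inhibitor group (adjusted p = 0.115). Emx2, Irx2 and Alx4 were not called.

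Tet1-KO TKO cells differed from TKO cells in both directions. Of 28 genes, 6 rose and 5 fell, or 21.4% and 17.9%, against 11.6% and 10.3% of all genes, and the median log2 fold change was -0.09. Dlx3 had 333 and 296 counts in Tet1-KO TKO libraries, against 103 and 38 in TKO libraries (log2 fold change 1.95 ± 0.31 SE, adjusted p = 0.00129). Irx3 had 211 and 365 counts in Tet1-KO TKO libraries, against 88 and 79 in TKO libraries (log2 fold change 1.53 ± 0.26 SE, adjusted p = 0.00179). Pitx1 had 35 and 50 counts in Tet1-KO TKO libraries, against 3 and 10 in TKO libraries (log2 fold change 2.43 ± 0.55 SE, adjusted p = 0.009). In all 3 the Tet1-KO TKO libraries were above both TKO libraries, a condition for giving full values. Msx2, Lhx2 and Meis2 rose by 2.11-fold, 1.86-fold and 1.76-fold. Msx2 averaged 4.60 ± 0.126 CPM in Tet1-KO TKO cells and 2.18 ± 0.253 CPM in TKO cells, Lhx2 2.08 ± 0.140 and 1.12 ± 0.058, and Meis2 4.15 ± 0.480 and 2.36 ± 0.404 (SD, n = 2 each).

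The falling genes included the Irx3 neighbour Irx5. Irx5 had 31 and 48 counts in Tet1-KO TKO libraries, against 81 and 70 in TKO libraries (log2 fold change -1.17 ± 0.32 SE, adjusted p = 0.0202). En1 had 12 and 23 counts in Tet1-KO TKO libraries, against 65 and 55 in TKO libraries (log2 fold change -2.01 ± 0.39 SE, adjusted p = 0.00349), a level close to the 7 and 12 counts of wild-type libraries. Gbx1 had 43 and 39 counts in Tet1-KO TKO libraries, against 110 and 95 in TKO libraries (log2 fold change -1.55 ± 0.27 SE, adjusted p = 0.00187). So genes of one family or cluster did not move as one: Irx3 rose and Irx5 fell, and En1 fell while En2 was not called (28.1 and 27.5 CPM, against 28.1 and 29.7 CPM). Nkx2-5 had 20 and 19 counts in Tet1-KO TKO libraries, against 44 and 39 in TKO libraries (log2 fold change -1.32 ± 0.37 SE, adjusted p = 0.0231). Nkx6-2 had 3.46 and 3.78 CPM in Tet1-KO TKO libraries, against 6.59 and 6.84 CPM in TKO libraries (log2 fold change -0.89 ± 0.16 SE, adjusted p = 0.00274).

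Of these 11 calls, 5 were kept in every alternative: Dlx3, Irx3, En1, Gbx1 and Nkx6-2. Without replicate 1 of the TKO group the adjusted p was 0.0976 for Pitx1, 0.216 for Lhx2, 0.233 for Meis2, 0.113 for Irx5 and 0.122 for Nkx2-5, and without replicate 2 of the TKO group it was 0.0692 for Msx2. With either one of the TKO libraries left out, 3 genes rose and 3 fell. Without replicate 2 of the Tet1-KO TKO group 3 rose, and without replicate 1 of it 3 fell. Without replicate 1 of the TKO group 1633 genes were called over the whole table, without replicate 2 of it 1721, and without replicate 2 of the Tet1-KO TKO group 2214, against 3582 with all libraries.

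**Figure D5:**
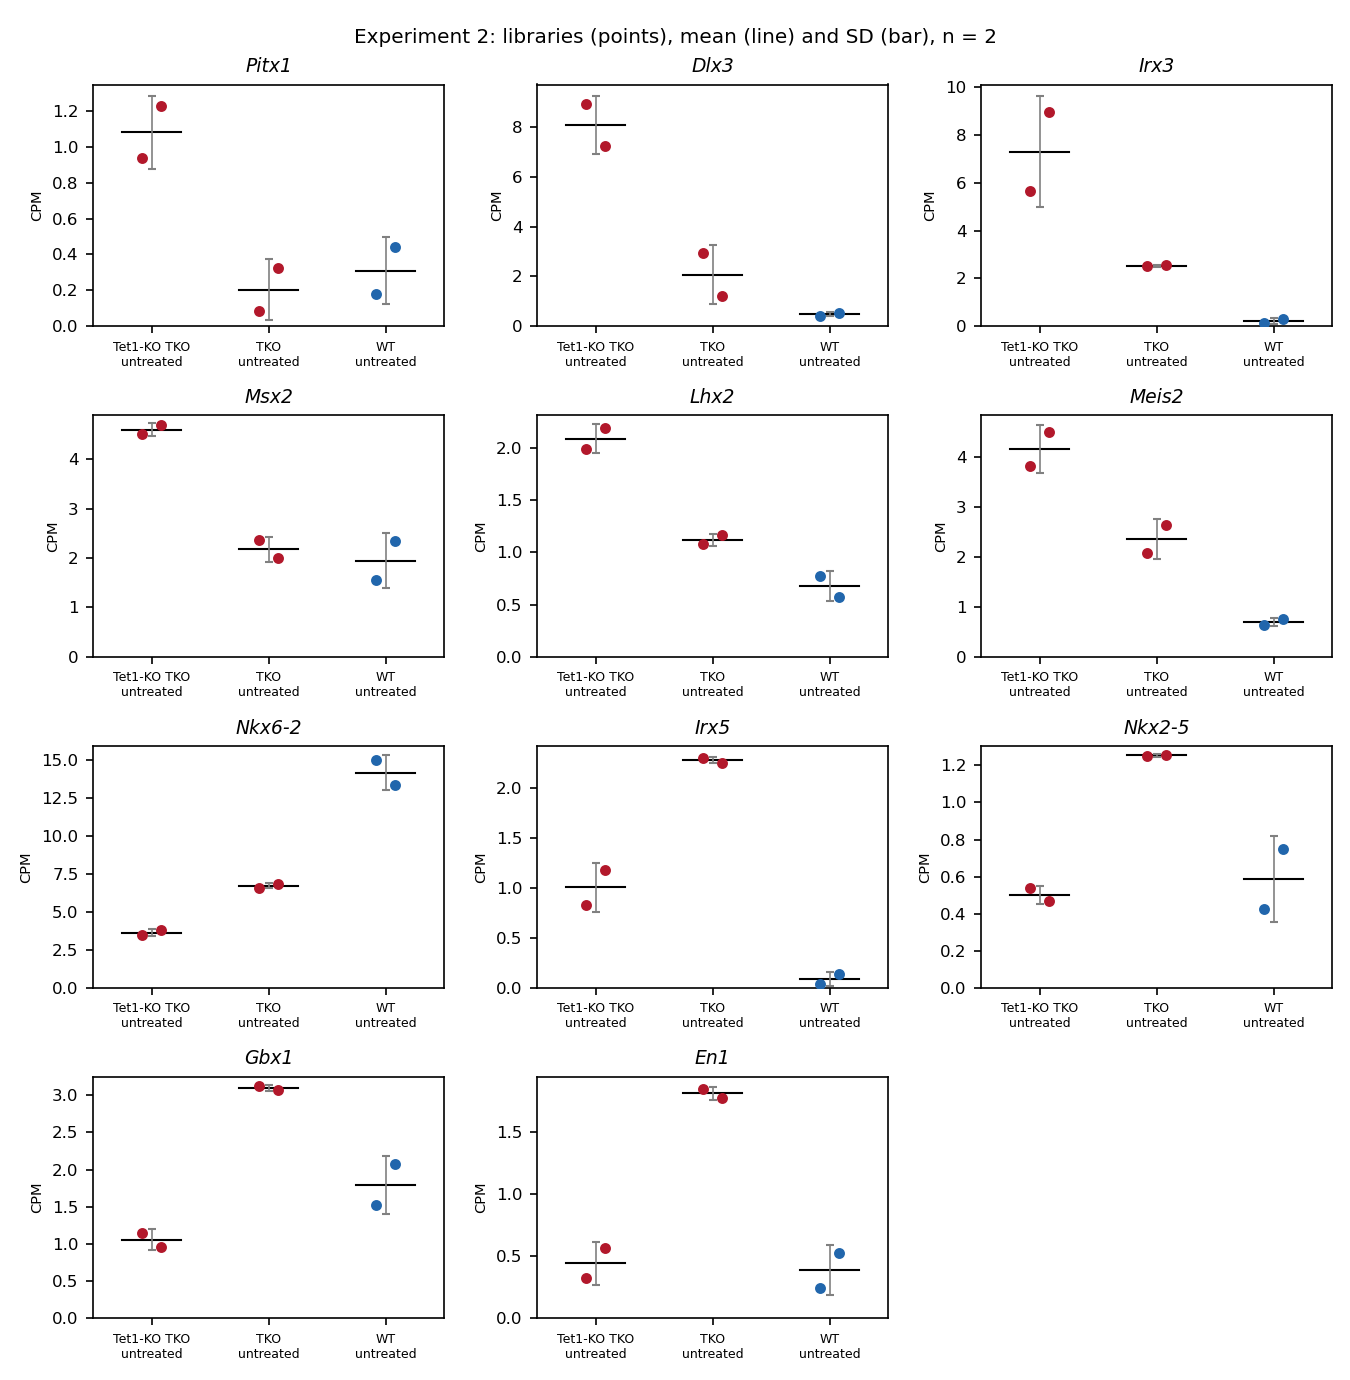
CPM of the 11 homeobox genes that changed in Tet1-KO TKO against TKO cells, in the 6 libraries of experiment 2, with the mean (line) and SD (bar), n = 2. The 6 rising genes come first; En1 is at 0.322 and 0.564 CPM in Tet1-KO TKO cells, near the wild-type libraries and under the 1.85 and 1.77 CPM of TKO cells.

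Set against wild-type cells, Tet1-KO TKO cells had 19 rising and 4 falling genes of 28 (67.9% and 14.3%, against 26.3% and 24.4% of all genes). Irx3 had 5.66 and 8.96 CPM in Tet1-KO TKO libraries, against 0.141 and 0.309 CPM in wild-type libraries (log2 fold change 5.05 ± 0.38 SE, adjusted p = 5.98e-07). Dlx3 had 8.94 and 7.26 CPM in Tet1-KO TKO libraries, against 0.423 and 0.529 CPM in wild-type libraries (log2 fold change 4.09 ± 0.40 SE, adjusted p = 4.68e-06). All 5 tested Irx genes rose here, Irx4 by a 24.8-fold ratio with a counting interval of 8.29 to 122. Barx2, Irx5, En2 and Emx1 rose by 4.01, 3.61, 3.26 and 2.97 on the log2 scale, though Barx2 had only 1 and 0 counts in wild-type libraries. Meis2 rose 5.99-fold and Msx2 2.36-fold. Gbx2 had 27.1 and 26.7 CPM in Tet1-KO TKO libraries, against 112 and 82.7 CPM in wild-type libraries (log2 fold change -1.86 ± 0.15 SE, adjusted p = 9.83e-07). Nkx6-2, Lhx6 and Gbx1 fell by 1.97, 1.06 and 0.76 on the log2 scale, so Nkx6-2 was lower in Tet1-KO TKO than in TKO cells and lower in TKO than in wild-type cells. Without replicate 1 of the wild-type group the adjusted p was 0.142 for Barx1, 0.0968 for Irx1, 0.127 for Pitx1 and 0.118 for Pitx3, and without replicate 2 of that group 0.218 for Gbx1 and 0.134 for Irx2. This comparison shares its libraries with the 2 preceding comparisons of experiment 2.

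Another 74 homeobox genes, Hox genes left out, were listed beside the 52. Of 53 tested under vehicle, 25 rose and 14 fell with genotype, with a median log2 fold change of 0.57, where 34.8% of all genes rose and 34.2% fell. With inhibitor 15 rose and 6 fell in TKO cells, and 18 rose and 10 fell in wild-type cells, where 19.9% and 19.6% of all genes rose and fell in TKO cells and 19.0% and 18.7% in wild-type cells. Whether these shares differ from those of the 52 genes was not tested. The most raised by genotype were Mnx1 (27 and 27 counts in TKO vehicle libraries, against 0 and 1 in wild-type vehicle libraries), Lmx1b (109 and 100, against 2 and 4) and Dbx2 (3 and 2, against 0 and 0). The most lowered were Nkx6-3 with 0.101 and 0.368 CPM in TKO libraries, against 31.1 and 27.4 CPM in wild-type libraries, Tlx2 with 2.32 and 1.47 CPM, against 21.1 and 21.1 CPM, and Prrx2 with 2.86 and 2.98 CPM, against 28.3 and 31.1 CPM. Nkx6-3, Tlx2 and Prrx2 were thus expressed in wild-type cells and fell further than any of the 52 genes. Of 23 Hox genes tested, 11 rose and 4 fell with genotype under vehicle. Of 21 antisense genes listed, 3 could be tested, of which Irx3os and Evx1os rose and Gm53 fell with genotype under vehicle.

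Markers of embryonic stem cells and of other cell types moved with genotype and with inhibitor. Over all genes tested, 34.8% rose and 34.2% fell with genotype under vehicle, and 11.6% rose and 10.3% fell with Tet1 loss. With inhibitor, 19.9% rose and 19.6% fell in TKO cells, and 19.0% rose and 18.7% fell in wild-type cells. Whether the marker counts below differ from these shares was not tested. Of 12 trophoblast markers tested, 10 rose with genotype under vehicle and 10 with Tet1 loss. The summed level of the 12 trophoblast markers was 1320 and 1320 CPM in TKO inhibitor libraries, 980 and 944 CPM in TKO vehicle libraries, 145 and 140 CPM in wild-type inhibitor libraries and 99.8 and 88.4 CPM in wild-type vehicle libraries. In experiment 2 it was 640 and 813 CPM in Tet1-KO TKO libraries, 217 and 214 CPM in TKO libraries and 77.1 and 80.9 CPM in wild-type libraries. The summed level of 11 neural markers was 205 and 212 CPM in TKO vehicle libraries, against 98.3 and 97.0 CPM in wild-type vehicle libraries, with 2 and 0 of the 11 at 0 counts in TKO and 5 and 4 in wild-type libraries. Fibroblast markers, 14 in number, summed to 39.2 and 39.4 CPM in TKO vehicle libraries, against 32.1 and 29.6 CPM in wild-type vehicle libraries, with 1 and 1 of them at 0 in TKO and 6 and 5 in wild-type libraries. The embryonic stem cell sum was 4490 and 4280 CPM in TKO inhibitor libraries, 5560 and 5610 CPM in TKO vehicle libraries, 6020 and 5770 CPM in wild-type inhibitor libraries and 6910 and 6810 CPM in wild-type vehicle libraries. With genotype under vehicle, 4 of the 12 embryonic stem cell markers rose and 8 fell. With inhibitor, 8 of these 12 markers fell in TKO cells and 9 in wild-type cells, and 0 rose in either line. Of 8 neural markers tested, 3 rose and 2 fell with inhibitor in TKO cells, and 5 rose and 0 fell in wild-type cells. Trophoblast markers rose with inhibitor too, 7 of 12 in TKO cells and 6 of 12 in wild-type cells. The primitive endoderm sum was 1680 and 1600 CPM in wild-type inhibitor libraries, against 1250 and 1260 CPM in wild-type vehicle libraries. In TKO cells it was 983 and 978 CPM in inhibitor libraries, against 1040 and 1100 CPM in vehicle libraries. With inhibitor, 1 of the 10 markers rose and 4 fell in TKO cells, and 5 rose and 2 fell in wild-type cells. With genotype under vehicle, 0 rose and 8 fell, and with Tet1 loss 7 rose and 0 fell. The 10 primitive endoderm markers differed between replicates in experiment 2, with summed levels of 846 and 2020 CPM in Tet1-KO TKO cells, 464 and 811 CPM in TKO cells and 859 and 1240 CPM in wild-type cells. The part of these cell types in the homeobox results was not tested.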

How the data were processed

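RNA was sequenced in 14 libraries of mouse embryonic stem cells. The authors deposited whole-number read counts per Ensembl gene in 1 table for each of the 2 experiments. The submitters' processing notes name TopHat2 2.0.2, HTSeq 0.5.3p9, Bowtie 0.12.8 and the mm9 build. The strand setting, annotation release and inhibitor dose are not given in sources used here. Per the labels' protocols, libraries were made from poly(A) RNA with a NEBNext Ultra kit. Gene names, exon overlaps and lengths came from GENCODE annotation of GRCm38, from which no coordinate is given, and promoter windows from RefSeq GRCm38.p6. Of 37991 gene IDs, 32938 matched a symbol.

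Each table was analysed alone with edgeR 4.0.16 in R 4.3.3. Genes were kept by filterByExpr (at least 10 counts in enough libraries, at least 15 in all), scaled by TMM, and tested in 1 quasi-likelihood fit over all groups of the experiment, with Benjamini-Hochberg adjustment over 16711 and 16303 genes and calls at an adjusted p under 0.05. CPM values use TMM library sizes. A ratio against 1 to 3 counts carries a 95% interval. Against 0 counts the bound assumes 3 counts in the whole group. These cover counting error only. The scripts were tested on simulated data.

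Genes and lists were chosen with earlier results of these data known. The rule was full values for up to 8 rising and 6 falling called genes per comparison whose libraries did not overlap, by size of change. Non-overlap among the genes given in full follows from that condition, and its share over all genes was not computed. The rule was not followed throughout. Some genes within it have only a fold change, means or summed counts, for example in both perturbations against neither and in Tet1-KO TKO against wild-type cells. Further genes named as family examples were chosen after their values were seen. Same-numbered libraries were not treated as pairs, since each comparison has only 2 numbers and the labels name nothing they share, although their deviations correlated weakly in experiment 2. Alternatives were DESeq2 1.42.0, its size factors, library size alone, no filter, a replicate block and each library left out. Leaving out a library leaves 1 sample in its group, which is then assumed to vary like the other groups.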

Additional observations from a re-analysis of the deposited data

Results flagged for a closer look

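The effect of PRT4165 differed between TKO and wild-type cells for 4 homeobox genes by the interaction test of edgeR. The differences, TKO minus wild type on the log2 scale, were -3.22 for Lhx9, -3.00 for Dlx2, -2.61 for Isl1 and -0.32 for Six4, with adjusted p of 0.0176, 0.0226, 0.0431 and 0.0468. For Lhx9 and Dlx2 the inhibitor raised both lines, for Isl1 and Six4 it was called in wild-type cells only, and the calls were lost in 5 of 12 alternatives for Lhx9, and in 6, 9 and 12 of 13 for Dlx2, Isl1 and Six4. The first 3 genes had 3, 3 and 4 counts in all in wild-type vehicle libraries.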

How the results depend on the processing

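Of 182 calls of homeobox genes, 138 were kept in every alternative and 0 changed direction. With DESeq2, 3 genes fell with inhibitor in TKO cells where edgeR called 5, 3 fell in Tet1-KO TKO against TKO cells where edgeR called 5, the interaction called 0 falling homeobox genes where edgeR called 4, and it called 415 of all genes where edgeR called 650. Leaving out single libraries gave 0 to 2 falling homeobox genes and 304 to 913 of all genes for the interaction. For inhibitor in TKO cells it gave 12 to 19 rising and 1 to 5 falling genes. For Tet1-KO TKO against TKO cells it gave 3 to 6 rising and 3 to 5 falling genes and 1633 to 4510 of all genes. Scaling by library size alone made 63.5% in place of 50.5% of all genotype calls under vehicle rises, 61.4% in place of 51.9% for both perturbations against neither and 40.7% in place of 52.9% for Tet1-KO TKO against TKO cells, and moved the median of all genes to 0.16 for genotype under vehicle and 0.17 for both against neither. With the replicate block, the genotype comparison under vehicle gave 32 rising and 3 falling genes, the interaction 632 of all genes, and the interaction call of Six4 was lost (adjusted p = 0.0558). In experiment 2 the block gave 19 rising homeobox genes untreated in place of 18, and 4497 in place of 3582 of all genes in Tet1-KO TKO against TKO cells. The differences between replicates 1 and 2 of a group correlated between groups at -0.0345 to 0.0384 in experiment 1. In experiment 2 they correlated at 0.111 to 0.236. Genes with a few counts in wild-type cells have fold changes whose size depth does not fix.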
